A study of Mus musculus with 12 samples.

Results

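RNAPII phosphorylated at serine 5 of its tail (Ser5p) was compared with mRNA level in mouse embryonic stem cells (mESCs), gene by gene. The genes were those coding for protein on assembled mm10 chromosomes that could be matched by identifier between the annotation and the RNA-seq table, 21905 of 21938. Each gene took the TPM of its highest transcript, a level that corrects the reads of a transcript for its length and for sequencing depth. Genes listed at a TPM of 0 (5747) formed 1 class, and the 16158 genes above 0 were divided into quartiles. A Ser5p peak counted at the gene start when it overlapped the 1 kb on either side of the annotated start by at least 1 bp, and over the body when it overlapped the gene beyond that window. By this rule 1811 genes had a start peak, and 2397 had a peak at the start or over the body.

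The study asked how Paf1C, a complex that travels with RNAPII, acts at promoters and enhancers of mESCs and of NIH3T3 fibroblasts. Of its 12 samples, the Ser5p ChIP-seq and the RNA-seq of mESCs carry this comparison. The mESCs were of the line E14 (E14TG2a, labelled ES-E14), grown in GMEM with FBS, LIF, nonessential amino acids, L-glutamine and 2-mercaptoethanol, and received no treatment. Ser5p was pulled down with an antibody of Cell Signaling in cells that carry a GFP-tagged NELFA according to the text of the study, which elsewhere calls them mESCs only. The label of the RNA-seq sample names no tag, so the ChIP-seq and RNA-seq cells may not be the same line. Each assay was run on 1 library. No value has a replicate, no test between conditions was possible, and every interval below is a 95% interval. It covers counting error for shares (exact Clopper-Pearson) and, for medians, the position of the median over genes, not the spread of single genes.

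RNAPII is the enzyme that makes mRNA. Its largest subunit, encoded by Polr2a, ends in a tail of repeats, and the kinase of the general factor TFIIH phosphorylates serine 5 of these repeats as transcription begins. Ser5p therefore marks polymerase that has started a transcript, and it is known to be highest near gene starts, where polymerase often pauses. Promoters rich in CpG dinucleotides serve most housekeeping and many developmental genes of the mouse, whereas many tissue-specific genes have CpG-poor promoters.

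The stretches just upstream of 7 gene starts are printed here because they span the cases met below. Each runs 120 bases from 5′ to 3′ and ends at the base before the annotated start, and CpG dinucleotides are in capitals. They were read from the GRCm38 (mm10) genome. Sox2 (chr3:34650285-34650404, plus strand) was highly expressed with strong Ser5p. Hist1h4d (chr13:23581478-23581597, plus strand) and Hist1h2ac (chr13:23683949-23684068, minus strand) had strong Ser5p and a TPM under 1. Msh4 (chr3:153906139-153906258, minus strand) had Ser5p and a TPM under 1 with no start of an expressed gene within 1 kb. Eef2 (chr10:81176511-81176630, plus strand) was highly expressed without a Ser5p peak. Pax6 (chr2:105668780-105668899, plus strand), a CpG-rich developmental gene with a TPM of 2.02, and Alb (chr5:90460777-90460896, plus strand), a CpG-poor liver gene with a TPM under 1, had no Ser5p peak.
Sox2: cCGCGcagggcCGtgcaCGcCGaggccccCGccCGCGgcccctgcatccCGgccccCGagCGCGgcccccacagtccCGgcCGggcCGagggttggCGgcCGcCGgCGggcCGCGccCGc
Hist1h4d: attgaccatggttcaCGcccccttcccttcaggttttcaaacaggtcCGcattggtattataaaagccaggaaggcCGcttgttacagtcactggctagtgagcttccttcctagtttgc
Hist1h2ac: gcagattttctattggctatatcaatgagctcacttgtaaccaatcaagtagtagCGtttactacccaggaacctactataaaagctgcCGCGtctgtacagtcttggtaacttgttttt
Msh4: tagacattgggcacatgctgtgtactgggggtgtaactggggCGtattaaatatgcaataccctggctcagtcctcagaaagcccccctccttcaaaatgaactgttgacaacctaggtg
Eef2: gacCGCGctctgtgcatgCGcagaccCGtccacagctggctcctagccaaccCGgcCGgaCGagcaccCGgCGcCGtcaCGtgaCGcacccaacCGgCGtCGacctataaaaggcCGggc
Pax6: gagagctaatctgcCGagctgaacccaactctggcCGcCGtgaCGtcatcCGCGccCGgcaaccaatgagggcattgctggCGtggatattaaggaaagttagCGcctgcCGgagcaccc
Alb: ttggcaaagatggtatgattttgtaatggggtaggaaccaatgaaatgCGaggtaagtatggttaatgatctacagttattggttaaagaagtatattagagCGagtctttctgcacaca
The Ser5p peaks of the genes that had one reached over the start. At Sox2 (ENSMUSG00000074637) the peak ran from 34649817 to 34653081 on chromosome 3 and at Hist1h4d (ENSMUSG00000061482) from 23581321 to 23582770 on chromosome 13. That of Hist1h2ac (ENSMUSG00000069270) ran from 23682894 to 23685202 on chromosome 13, and that of Msh4 (ENSMUSG00000005493) from 153905550 to 153907055 on chromosome 3. The Sox2 stretch holds 22 CpGs, the Eef2 stretch 16 and Pax6 10. Hist1h4d and Hist1h2ac hold 3 each, Alb 2 and Msh4 1. CpG content thus did not sort these genes by Ser5p: Eef2 and Pax6 had many CpGs and no peak, and both histone genes had few CpGs and a strong peak.

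The Ser5p list held 4490 peaks, 4487 of them on assembled chromosomes. Of these, 1809 (40.3%, 38.9% to 41.8%) met the start window of a protein-coding gene, 1445 (32.2%) met only gene bodies, and 1233 (27.5%) met neither. Another annotated gene, mostly noncoding, had its start within 1 kb of 165 of the body peaks and 180 of the peaks outside. The median fold enrichment over the local background was 4.80 (4.73 to 4.88) at starts, 4.55 (4.49 to 4.63) in bodies and 4.60 (4.55 to 4.67) elsewhere. A single peak served 1564 of the 1811 genes, 230 genes had 2 and 17 had 3, and 253 peaks touched the start windows of more than 1 gene. The estimated counts of the RNA-seq library added up to 26400407. The methods give a target depth but not the reads obtained, so the read depth of the Ser5p library is unknown, and a gene without a peak is one where none was called, not one shown to lack RNAPII.

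Ser5p at gene starts became more frequent with mRNA level at every step. Over all genes, 8.27% had a start peak. Among genes at a TPM of 0, 25 of 5747 had one (0.435%, 0.282% to 0.642%). The lowest quartile, with a TPM of up to 0.523, had 41 of 4040 (1.01%, 0.729% to 1.37%), and the second quartile, up to 5.60, had 211 of 4039 (5.22%, 4.56% to 5.96%). In the third quartile, up to 21.6, the count was 445 of 4039 (11%, 10.1% to 12%), and in the top quartile 1089 of 4040 (27%, 25.6% to 28.4%). The intervals of neighboring classes did not overlap. Even so, most genes of the top quartile had no start peak, and 2727 of them (67.5%) had no Ser5p peak at the start or over the body.

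**Figure D1:**
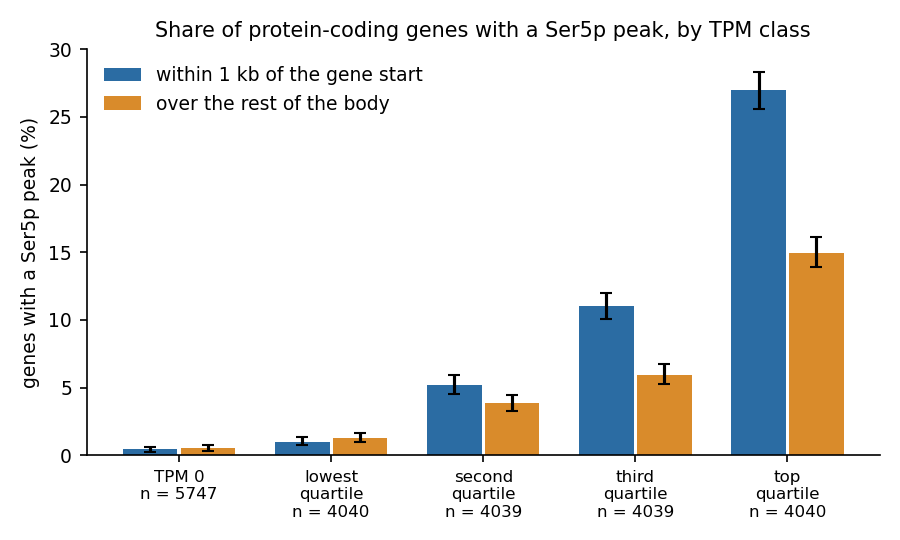
Share of protein-coding genes (vertical axis, percent) with a Ser5p peak at the start (blue) or over the rest of the body (orange) in each TPM class, with 95% exact intervals as error bars. The numbers under the axis are the genes of each class, and body shares leave out genes too short to have a body outside the start window. Start shares climb from 0.435% at a TPM of 0 to 27% in the top quartile.

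The top quartile is wide, and the share kept climbing inside it. In bins of TPM chosen after the data were seen, a start peak was found at 15.4% of the 4518 genes from 10 to 50 TPM, 26.8% of the 1034 from 50 to 100, 35.3% of the 504 from 100 to 200 and 49.0% of the 239 from 200 to 500. From 500 to 1000 TPM it was 44 of 60 genes (73.3%, 60.3% to 83.9%), and at 1000 TPM or more 85 of 101 (84.2%, 75.5% to 90.7%). With body peaks included, 94 of these 101 genes had Ser5p. Nearly all genes at 1000 TPM or more thus had a Ser5p peak, and most had it at the start, against a start peak at 8.27% of all genes. Many of these 101 genes are cytosolic ribosomal protein genes, and the bin was not examined without them.

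**Figure D2:**
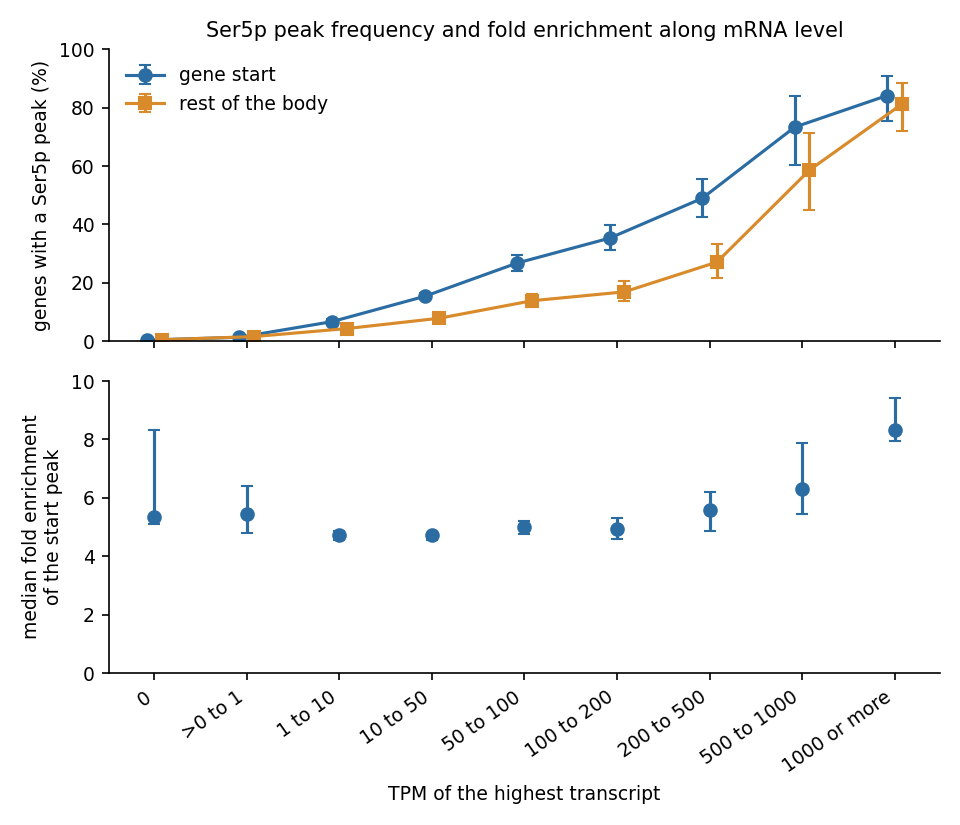
Upper panel, share of genes with a Ser5p peak at the start (circles) or over the body (squares) in 9 bins of TPM; lower panel, median fold enrichment of the start peak. Bars are 95% intervals. The start share rises to 84.2% at 1000 TPM or more, while the median fold stays between 4.72 and 5.57 from 1 to 500 TPM and reaches 8.34 in the last bin. Many genes of the last bin are ribosomal protein genes.

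Among called peaks, the strength of a start peak followed mRNA level far less than its presence did. Folds exist only where a peak was called, so weaker signal is left out in every class. The median fold enrichment of the strongest start peak was 5.35 (5.11 to 8.34) for the 25 genes at 0, 5.09 (4.51 to 6.42) in the lowest quartile, 4.88 (4.67 to 5.19) in the second, 4.55 (4.50 to 4.69) in the third and 5.09 (4.92 to 5.25) in the top quartile. The intervals of the top quartile and of the genes at 0 overlap, whereas those of the third and top quartiles do not. In the finer bins the median reached 6.32 from 500 to 1000 TPM and 8.34 at 1000 or more. A fold of at least 10 was reached at 9.83% of the start peaks in the top quartile and at 4.27% in the third, but at 19% in the second, 9 of 41 in the lowest and 6 of 25 at a TPM of 0. Without replication-dependent histone genes, a view chosen after the data were seen, the medians were 5.26, 4.79, 4.71, 4.55 and 5.09 from the genes at 0 to the top quartile. Across the 1786 genes with a start peak and a TPM above 0, Spearman's rho of fold and TPM was 0.14, and without histone genes 0.20 over 1748. Within the top quartile it was 0.24 over 1089 genes. These values are across genes of 1 pair of libraries, and genes that share a peak are not independent. With only peaks that met the start window of a single protein-coding gene, a view chosen after the data were seen, the medians were 6.54 for 7 genes at 0, 4.37 for 13 in the lowest quartile, 4.74 for 128 in the second, 4.55 for 326 in the third and 5.14 (5.02 to 5.35) for 859 in the top quartile. The interval at 0 was then wide, 3.71 to 14.3.

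**Figure D3:**
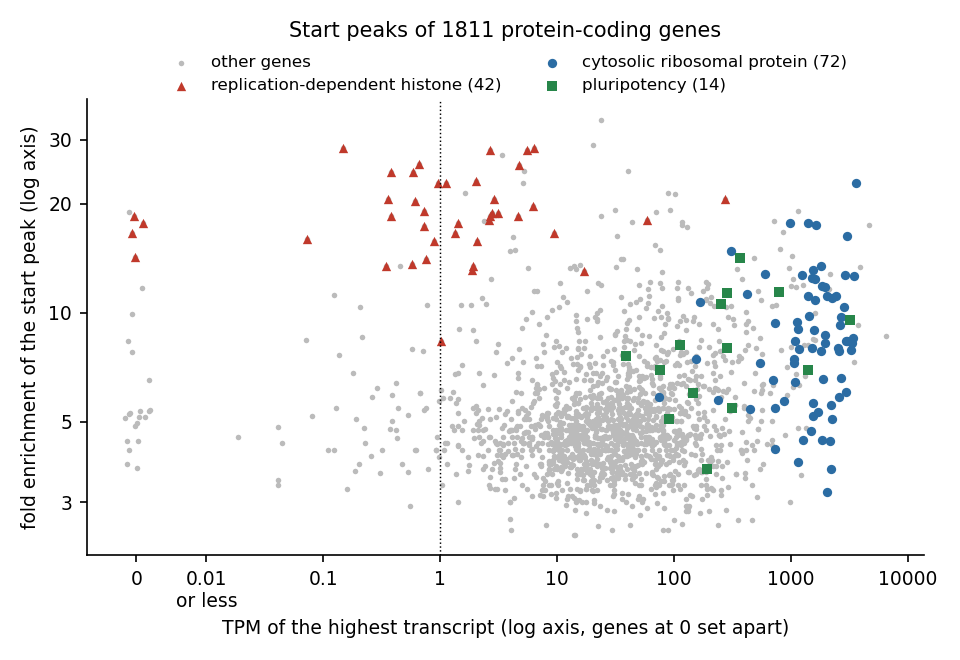
Fold enrichment of the strongest start peak (vertical log axis) against TPM (horizontal log axis, genes at 0 on the left) for the 1811 genes with a start peak, 1 point per gene. The dotted line marks a TPM of 1. Histone genes (red triangles) sit between 8.34 and 28.6 fold, several of them at the fold of 1 shared peak, while ribosomal protein genes (blue) hold the far right.

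Peaks over the rest of the gene body showed the same order with lower shares. Over all genes with such a body, 5.06% had a body peak. The share was 0.523% (0.345% to 0.760%) for genes at 0, 1.28% in the lowest quartile, 3.84% in the second, 5.95% in the third and 15.0% (13.9% to 16.1%) in the top quartile. Bodies of genes at 0 held 0.209 peaks per Mb, those of the lowest quartile 0.273, and the later quartiles 0.955, 1.68 and 9.12. Part of these peaks reach out of a start window: counting only peaks that touch no start window of a protein-coding gene, a view chosen after the data were seen, the top quartile had 12.1% and the genes at 0 had 0.329%. In the top quartile 378 of the 602 genes with a body peak also had a start peak, whereas in the other classes most did not. For genes at 0 the counts were 6 with both and 21 with a body peak alone.

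Short genes of the top quartile had Ser5p most often. With a body of up to 5 kb, 41.3% (37.4% to 45.2%) of 630 genes had a start peak, against 20.8% (18% to 23.9%) of 759 genes with more than 50 kb. Body peaks away from any start window were found at 20.3% of the shortest genes, 11.1% from 5 to 20 kb, 7.87% from 20 to 50 kb and 13.6% above 50 kb. Of 905 such summits in the top quartile, 35.7% lay within 5 kb of the gene start and 15.8% within 1 kb of the gene end. Gene length and mRNA level were not separated further.

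Start peaks centered just downstream of the start in genes of high mRNA level. The summit of the strongest peak lay a median of 83 bp (69 to 94) downstream in the top quartile, where 67.6% of the summits were downstream. In the third quartile the median was 10 bp (−15 to 38), in the second 17 bp (−37 to 59), in the lowest 58 bp (−156 to 203) and at a TPM of 0 28 bp (−185 to 168). The last 4 intervals include 0, and about as many of their summits lay upstream as downstream, 52.1% to 56.0% being downstream. The share of summits within 100 bp of the start did not follow the order of the classes. It was 28% at a TPM of 0, then 14.6%, 26.1%, 36.4% and 32.6% from the lowest to the top quartile. Among genes with a start peak, those of low class shared their start region more often. Another gene with a TPM of at least 1 started within 1 kb of 68.0% at 0, 63.4% in the lowest quartile and 20.8% in the top quartile. With any other gene counted, the shares were 76%, 73.2% and 35.8%. Over whole classes, with or without a peak, the order was reversed. Any other gene started within 1 kb of 468 of 5747 genes at 0, 567 of 4040 in the lowest quartile and 1328 of 4040 in the top quartile.

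CpG content of the promoter, here from 250 bases before to 50 after the start, went along with Ser5p in every class. The ratio of observed to expected CpGs was at least 0.6 at 79.7% of the genes with a start peak and a TPM of 1 or more, and at 67.1% of those without. In the top quartile 28.6% (27% to 30.2%) of CpG-rich and 21.6% (19.1% to 24.4%) of CpG-poor genes had a start peak. At a TPM of 0 it was 18 of 428 CpG-rich genes (4.21%, 2.51% to 6.56%) and 7 of 5319 CpG-poor ones (0.132%, 0.0529% to 0.271%). TATAAA, read on both strands in the last 50 bases before the start, was found at 3.97% of all genes, at 2.57% of top-quartile genes with a start peak and at 1.05% of those without. CCAAT, on both strands in the 120 bases before the start, was found at 23.5% of all genes, 27.5% of top-quartile genes with a start peak and 27.8% of those without. These matches are letters only. Among the printed stretches, Hist1h2ac and Eef2 hold TATAAA in the last 50 bases.

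Most listed genes of stem cell identity carried Ser5p, and most had a high mRNA level. Of 18 pluripotency genes, 14 had a start peak (77.8%, 52% to 94%), against 8.27% of all genes. The 18 had a median TPM of 202, from 17.2 to 3190. Of all genes from 200 to 500 TPM, 49.0% (42% to 55%) had a start peak, and these intervals overlap. Sox2, a partner of Oct4 in the core network, had a fold of 14.2 with a TPM of 364. Tdgf1, a coreceptor of Nodal, had 11.4 (TPM 783), Nanog, a homeodomain factor of the core network, 11.3 (TPM 281), and Klf2, a zinc finger factor, 10.6 (TPM 251). Dppa5a had the highest TPM of the list, 3190, and a fold of 9.52, and Pou5f1, which encodes Oct4, had 6.96 with a TPM of 1402. The weakest was Utf1 with 3.71 (TPM 193). Fold and TPM thus did not follow the same order within the list.

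No start peak was found at Esrrb, Fgf4, Lin28a and Prdm14. Esrrb, an orphan nuclear receptor, had a TPM of 211 and 14 body peaks over 160 kb, the strongest with a fold of 9.88, and the start of its highest transcript lies 60.5 kb from the annotated gene start, also without a peak. For Fgf4, a growth factor (TPM 146), the annotated start lies 14.0 kb from that of its highest transcript, where the fold was 5.42. Lin28a, an RNA-binding protein (TPM 155), and Prdm14, a repressor of differentiation (TPM 17.2), had no peak at either start or in the body.

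Many genes of the growth machinery carried Ser5p too. Of 85 genes matched as cytosolic ribosomal protein genes, 72 (84.7%, 75.3% to 91.6%) had a start peak. Their folds ran from 3.19 at Rpl38 to 22.7 at Rpl41, with a median of 8.29. The 85 genes had a median TPM of 1584. Of all genes at 1000 TPM or more, 84.2% had a start peak, and many of those are these same genes. The comparison therefore cannot say whether they differ from other genes at their level. The summit at Rpl41 lies 1486 bp past its start. A further 7 genes, Rps10, Rps14, Rps24, Rps25, Rps2, Rpl3 and Rpl17, had body peaks only, and for 5 of these, Rps10 and Rps24 excepted, a peak lay at the start of the highest transcript. The remaining 6 were Rpl22 (TPM 1765), Rpl29 (TPM 414), the paralogs Rpl3l, Rpl10l and Rpl39l with a TPM of at most 27.8, and the kinase gene Rps6kl1, which the name pattern took in. Ribosomal protein genes have many near-identical pseudogene copies, so their TPM is uncertain.

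Among 15 housekeeping genes of very high TPM, at least 567 each, 10 had a start peak (66.7%, 38.4% to 88.2%). Of all genes, 73.3% had one from 500 to 1000 TPM and 84.2% at 1000 or more. Actb, cytoplasmic actin (TPM 1157), had 19.2, Hspa8, a constitutive chaperone (TPM 720), 17.9, and Hsp90ab1, another chaperone (TPM 3921), 13.3. Ybx1, an mRNA-binding protein (TPM 974), had 2.99, among the weakest peaks called. Eef1a1, translation elongation factor 1 alpha, had the highest TPM of all genes, 10124. Its annotated start carried no peak, but the start of its highest transcript, 7.43 kb away, had a fold of 14.6, and for Ldha, lactate dehydrogenase A, the same start, 4.36 kb away, had 4.34. Actg1 (TPM 599), Eef2 (TPM 1979) and Pgk1 (TPM 712) had no Ser5p peak at all.

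These 3 were among the 10 genes of highest TPM without any Ser5p peak, ribosomal protein, mitochondrial and histone genes left aside by name pattern. The others were Eno1b (1527 TPM), Gm2000 (1338 TPM), Gm11808 (1255 TPM), Fau (1072 TPM), Btf3 (704 TPM), Ywhae (669 TPM) and Cox6c (636 TPM). Several of these share sequence with near-identical copies, so their TPM is uncertain. H3K27ac, an acetylation found at active promoters, had a peak at the start of 5 of the 10, Pgk1, Fau, Btf3, Ywhae and Cox6c. At the annotated starts of 4 of them, Eef2, Eno1b, Gm11808 and Actg1, none of the 5 mESC peak lists had a peak.

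Immediate early genes, which respond within minutes to growth signals, were mixed. Of 21, 6 had a start peak (28.6%, 11.3% to 52.2%), against 8.27% of all genes. The 21 had a median TPM of 3.42, and of all genes from 1 to 10 TPM 6.73% had a start peak. Ier2 had the strongest with 21.3 (TPM 102), then Junb with 11.1 (TPM 35.2), Klf6 with 10.2 (TPM 23.2), Jund with 8.55 (TPM 77.3), Ier3 with 5.42 (TPM 3.16) and Zfp36 with 4.33 (TPM 3.42). Fos (TPM 2.73), Jun (TPM 3.25) and Myc (TPM 12.5) had none, and the annotated start of Egr1 (TPM 15.9) had none while that of its highest transcript, 1.38 kb away, had 7.51. The median TPM was 29.2 with a start peak and 2.73 without.

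Of the 12 RNAPII subunit genes, only Polr2a, the subunit that carries serine 5, with a fold of 12.9 (TPM 78.5), and Polr2b with 3.55 (TPM 91.3) had a start peak. The other 10, with a TPM from 4.42 to 132, had none. The 12 had a median TPM of 69.5, and of all genes from 50 to 100 TPM 26.8% had a start peak. Among 16 genes for the TFIIH kinase complex and for phosphatases of the tail, Ctdsp2, a phosphatase, had 5.09, Ercc3, a helicase of TFIIH, 3.47 and Gtf2h1, a TFIIH subunit, 3.35. Cdk7, the kinase itself, had a TPM of 45.1 and no peak. The 16 had a median TPM of 23.7, and of all genes from 10 to 50 TPM 15.4% had a start peak.

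Lineage genes with little or no mRNA had no Ser5p peak. None was found at the starts of 30 developmental regulators (a count of 0 allows a share of up to 11.6%), 39 Hox genes (9.03%) or 20 tissue-restricted genes (16.8%). The same held for 8 fibroblast markers (36.9%), 1135 olfactory receptor genes (0.325%) and 320 vomeronasal receptor genes (1.15%). Nor was one found over the bodies of any of these genes. Their median TPM was at most 0.173. Only 0.872% of all genes with a TPM under 1 had a start peak. Counts of 0 in lists of 8 to 39 genes therefore do not set these genes apart from others at their level. The receptor genes have CpG-poor starts, with median ratios of 0.0884 and 0.0917. Of all CpG-poor genes at a TPM of 0, 0.132% had a start peak. The developmental regulators and Hox genes have CpG-rich starts, with median ratios of 0.641 and 0.744, close to the 0.750 of the histone genes below. A single olfactory receptor gene, Olfr1388, passed a TPM of 100, with 237, and had no peak.

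Ser5p with almost no mRNA was rare. Of 10666 genes with a TPM under 1, 93 (0.872%, 0.704% to 1.07%) had a start peak, of which 25 were listed at 0. They made up 5.14% of the genes with a start peak. Folds ran from 2.93 to 28.6 with a median of 5.39, and 25 of the 93 reached 10. Nearest to the limit lay E430018J23Rik (TPM 0.982, fold 4.01) and Agbl5 (TPM 0.971, fold 5.71) below, and Hist3h2a (TPM 1.01, fold 8.34) and Fgf18 (TPM 1.01, fold 6.12) above. These genes fell into 4 kinds, which were set after their values were seen and assigned in the order given here.

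The strongest were replication-dependent histone genes, 19 of the 93. Their folds ran from 13.4 to 28.6, and of the other 74 only Gm49416 and Msh4 lay in this range. Hist1h2ac had 28.6 with a TPM of 0.146, Hist1h4d 25.8 with 0.663 and Hist1h3f 24.5 with 0.380. Hist1h2ab, Hist1h2ba, Hist1h2bl and Hist1h4c, listed at 0, had 18.5, 17.7, 16.6 and 14.3. Hist4h4, alone on chromosome 6, had 16 with a TPM of 0.0720.

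Over the whole family of 67 histone genes, 42 had a start peak (62.7%, 50.0% to 74.2%), from only 28 distinct peaks, since the genes lie close together and often share a promoter. The Hist1 cluster on chromosome 13 had 40 of 54, the Hist2 cluster on chromosome 3 had 0 of 10, and Hist3 and Hist4 had 1 of 2 and 1 of 1. Their median TPM was 0.729. The strongest start peaks of the 42 genes were 27 distinct peaks. Genes on both sides of a TPM of 1 shared 9 of them, which therefore give no comparison of fold with TPM. Another 9 met only genes with a TPM under 1, with a median fold of 17.4 (13.6 to 25.8, lowest to highest), and 9 only genes with a TPM of 1 or more, with 18.8 (8.34 to 28.2). The ranges of these separate peaks overlapped. Histone genes supplied 41 of the 181 genes with a start fold of at least 10. Replication-dependent histone mRNAs end in a stem loop instead of a poly(A) tail, so poly(A) selection misses most of them, and the sources used here do not say whether RNA was selected for poly(A). Reads of these near-identical genes are also split among copies: Hist1h2ao was listed at 812 TPM and Hist1h2ap at 0.000497, both without a peak. The part of either in these TPM values was not tested.

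The next kind, 45 of the 93, were other genes with a start less than 1 kb from that of a gene with a TPM of at least 1. Over all 93, histones included, 52 (55.9%) had such a neighbor, against 298 of 10573 genes (2.82%) with a TPM under 1 and no start peak. Examples are Ttc39d (fold 11.7) beside Srsf7, a splicing factor, Clhc1 (10.4) beside Rps27a, Teddm2 (7.63) beside Glul, glutamine synthetase, and Trim17 (8.34) beside Hist3h2a. The median fold was 5.15 and 44 of the 45 starts had H3K27ac. A peak in such a shared window cannot be given to either gene from these files.

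A further 11 started inside another gene with a TPM of at least 1. Among them were H2-DMa in Brd2 (8.55), RPS10-NUDT3 in Rps10 (7.81), 4930404N11Rik in Mfsd12 (9.90) and Fgfr2 in Ctbp2 (4.19). Fgfr2 is annotated here with a body of 2960 kb, so this outermost start may lie far from the one in use. The last 18 had none of these features, with a median fold of 4.28. Msh4, a meiotic mismatch repair gene, had 13.5 with a TPM of 0.456 and 40.5 estimated counts, Fam83e 11.2 with 0.124 and Gramd2 10.5 with 0.768. The other 15 reached at most 5.93, at Apc2. Summed over transcripts, the TPM was 1.03 for Msh4, 0.16 for Fam83e and 1.04 for Gramd2. The summed TPM also passed 1 at Agbl5 (6.90), Fam131a (1.97), E430018J23Rik (1.755) and Lag3 (1.12). At the rest of the 18 it stayed under 1. Ends of expressed genes were looked at after these values were seen. A gene with a TPM of at least 1 ended within 1 kb of the peak at 8 of the 18, the 4 strongest included. Rabggtb (TPM 68.7) ended 232 bp from the Msh4 peak, Rpl18 (TPM 1149) 43 bp from that of Fam83e, Pkm (TPM 1382) 233 bp from that of Gramd2 and Rps15 (TPM 1863) 99 bp from that of Apc2, and Ptms (TPM 189) ended inside the peak of Lag3. Counted from the gene start, such an end lay within 1 kb at 4 of the 18 (22.2%) and at 18 of all 93 (19.4%). Among genes with a TPM under 1 and no start peak it was 155 of 10573 (1.47%). By distance from the gene start, a nearby end was thus not particular to the last kind. Distance from the peak was measured only for these 18 genes, so the 8 of 18 has no share over other genes beside it. Whether these peaks belong to the gene that ends or to the one that starts was not tested.

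**Figure D4:**
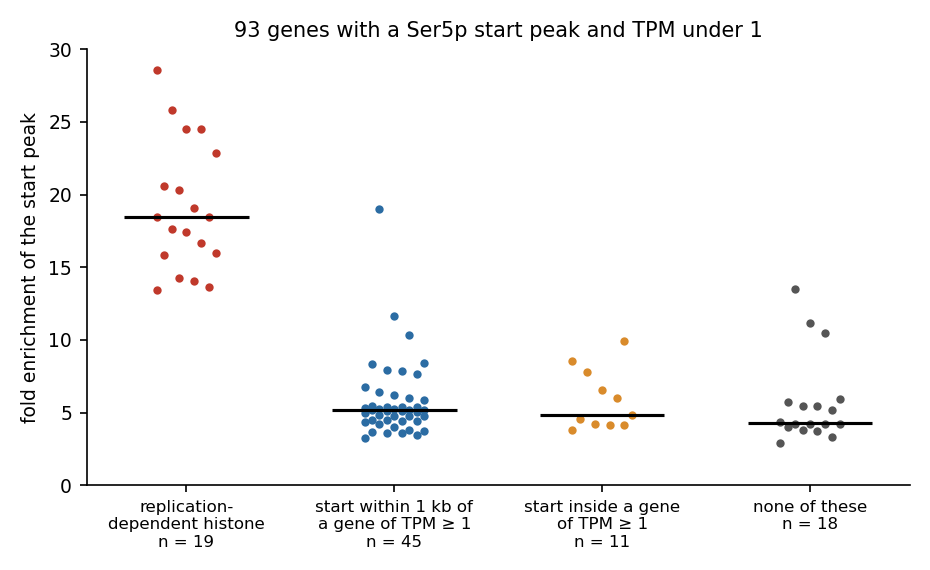
Fold enrichment of the start peak (vertical axis) for the 93 genes with a start peak and a TPM under 1, 1 point per gene, in the 4 kinds named under the axis; lines are medians. The histone genes start at 13.4, and of the other kinds only Msh4, with 13.5, and Gm49416 beside 1810009A15Rik, with 19, lie among them.

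The other chromatin profiles of the mESCs were then read at the same starts. NELFA, a subunit of the pausing complex NELF, and Ctr9, a core subunit of Paf1C, were both profiled through a GFP tag, and Ser2p is the tail phosphorylation of elongating RNAPII. Over all genes, 32.3% had a start peak of H3K27ac, 8.08% of NELFA, 13.3% of Ctr9 and 1.73% of Ser2p. Each list is 1 library, and their sizes differ widely, from 1675 peaks for Ser2p to 44748 for Ctr9.

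At the 93 starts with Ser5p and a TPM under 1, H3K27ac was found at 80.6% (71.2% to 88.1%), NELFA at 52.7% (42.1% to 63.1%), Ctr9 at 71.0% (60.6% to 79.9%) and Ser2p at 38.7% (28.8% to 49.4%). Genes with a TPM under 1 and no Ser5p had 2.39%, 0.199%, 3.77% and 0.180%. Genes with Ser5p and a TPM of 1 or more had 92.1%, 58.6%, 68.5% and 14.0%. For NELFA and Ctr9 the intervals of the low and the higher genes with Ser5p overlap, H3K27ac was lower and Ser2p higher at the low genes. Without the 19 histone genes the low genes had H3K27ac at 78.4%, NELFA at 40.5% (29.3% to 52.6%), Ctr9 at 63.5% (51.5% to 74.4%) and Ser2p at 27% (17.3% to 38.6%). NELFA was then also lower than at the higher genes (56.2% to 61.0%), and Ctr9 still overlapped (66.2% to 70.7%).

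The kinds of low genes differed from each other. All 19 histone genes had NELFA and Ctr9, and 16 had Ser2p. Of the 18 genes of the last kind, 1 had NELFA (5.56%, 0.141% to 27.3%), 12 had Ctr9 and 8 each had H3K27ac and Ser2p. Msh4 had a Ctr9 fold of 34.3 and a Ser2p fold of 11.8, and Gramd2 had 24.5 and 12.9, both without NELFA. The CpG ratio of these 18 starts had a median of 0.454 (0.236 to 0.546), against 0.824 (0.811 to 0.837) at genes with Ser5p and a TPM of 1 or more, and 22.2% of them were CpG-rich.

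**Figure D5:**
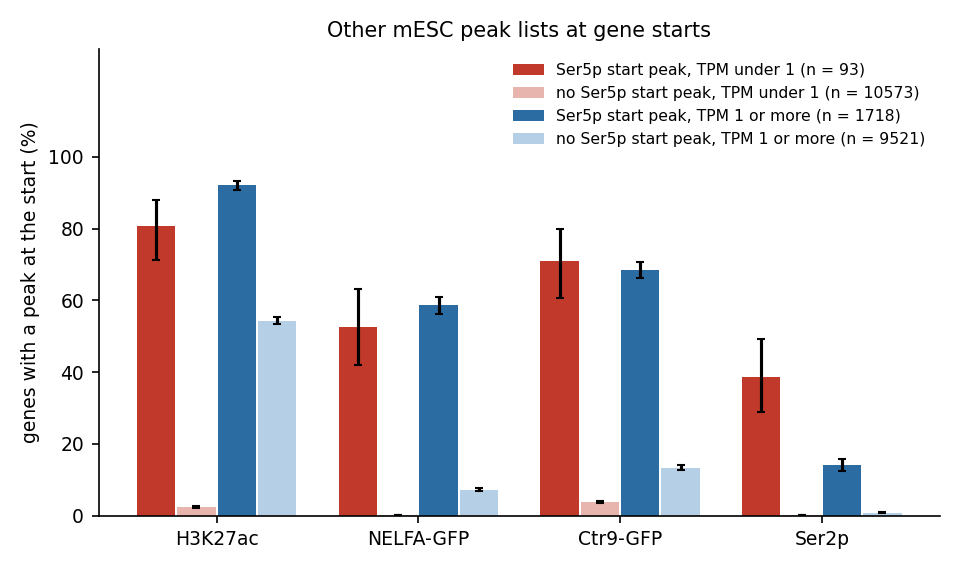
Share of gene starts (vertical axis, percent) with a peak of H3K27ac, NELFA-GFP, Ctr9-GFP or Ser2p, for genes with or without a Ser5p start peak and with a TPM under 1 or of 1 or more, with 95% exact intervals. Starts with Ser5p carry the other marks at both mRNA levels, with Ser2p at 38.7% of the low and 14.0% of the higher genes.

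Within the top quartile, starts with Ser5p had NELFA at 62.3% and Ctr9 at 72.5%, against 11.3% and 17.8% at starts without. H3K27ac was at 94.0% and 76.0%, so most highly expressed genes without a Ser5p peak still had acetylated starts. Ser2p was at 10.5% and 0.949%.

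Some of the strongest start peaks also covered or lay beside a gene for a small noncoding RNA, and the files do not assign them to either gene. Rdm1, a gene of DNA repair (fold 34.1, TPM 23.6), shares its start window with the snRNA gene Gm23849. Parp16 (27.3, TPM 3.37) holds the U5 snRNA gene Rnu5g and the snRNA gene Gm25313, Eapp (29.0, TPM 20.2) starts beside the snRNA gene Gm22513, and Gtf3c6 (24.7, TPM 40.2) beside Rnu3a, a U3 snoRNA gene. The strongest peak of all, with a fold of 35.9, lies on the snRNA gene Gm22068 inside Tex14, a germ cell gene (TPM 9.14) without a start peak. Of the 20 strongest peaks, 11 held the start of an snRNA or snoRNA gene and 4 that of a histone gene. Another of the 20, with a fold of 24.5, begins just past the start of the histone gene Hist1h3f. Over the annotation, 39 of 1383 snRNA genes (2.82%) had a peak within 1 kb of the start, with a median fold of 18, against 4.89 for protein-coding genes.

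Body peaks were spread over 1073 genes, of which 667 (62.2%) had 1 and 117 (10.9%) had 4 or more. In the top quartile, Gm20388, an annotated gene of 4434 kb that spans others, had 24, Esrrb 14 and Slc2a3, a glucose transporter (TPM 362), 13. The annotated start of Slc2a3 had no peak, but that of its highest transcript, 58.9 kb away, had 9.77, and 10 peaks remained in the body counted from there. The third quartile was led by Lemd1 with 9, Zbtb7a with 7 and Tex14 with 6, the second by Fbxo36 with 7, Phykpl with 6 and Dlgap1 with 5, and the lowest by Lhfp with 6 over 219 kb, with no start peak and a TPM of 0.446.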

How the data were processed

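ChIP-seq of RNAPII Ser5p and RNA-seq of mESCs, 1 library each, were analysed with 4 further mESC peak lists. For the peak lists the authors used bowtie2 2.3.5.1 on mm10, dropped blacklisted reads, and ran macs2 2.2.6 with a q-value limit of 0.01. Fold enrichment, as deposited, is the summit pileup as a ratio to local background, and the deposited −log10 q was used as a stricter threshold. Strong background or a blacklisted stretch can hide a peak. With kallisto 0.46.1 and the M19 transcriptome of GENCODE, the authors made and deposited TPM and estimated counts for 137767 transcripts. The methods state a target for the ChIP-seq depth, but the reads obtained are not given in the sources used here.

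Gene starts came from GENCODE M21. A gene start is the outermost annotated one, which can lie far from the start in use. Overlaps, shares and medians were computed with pandas 2.3.3, pysam 0.24.0, SciPy 1.17.1 and NumPy 2.4.6 under Python 3.11.15, figures with Matplotlib 3.10.9. The code was tested on simulated data (500 genes, 7 of 7 checks passed). Genes named were, per class, the 5 of highest start fold (10 in the top quartile) and 3 with most body peaks, the 10 of highest start fold with a TPM under 1 and no expressed start within 1 kb, the 10 of highest TPM without a peak, and members of 13 gene lists. Other genes were picked for their values. The genes and lists were chosen with earlier results of these data known. Alternatives changed the peak threshold, overlap rule, windows, start, class measure, TPM limit and summary. The 3 input libraries were not used, and no NIH3T3 value is reported here.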

Additional observations from a re-analysis of the deposited data

How the results depend on the processing

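Of 48 values under 16 alternatives, 37 stayed within the interval of the reported value or, for the count of low genes, within 1.5 times, and 11 did not. Under every alternative, start and body shares were higher in the top quartile than in genes at 0. With a −log10 q of at least 5, the top quartile had a start share of 23.3%, a body share of 13.2% and a median start fold of 5.43. With 500 bp around the start, its start share was 25.3%. Without genes whose start lay within 1 kb of another, the start share at a TPM of 0 was 0.114% and the genes with a start peak and a TPM under 1 numbered 31 in place of 93, by the removal of genes itself. The top-quartile body share was 11.9% with the summit required inside the body, 8.94% for bodies from 5 kb past the start, and 12.1% when peaks touching a start window were dropped, where genes at 0 had 0.329%. The mean start fold of the top quartile was 6.08 in place of the median of 5.09. The count of low genes was 66 for a TPM under 0.5, 135 under 2 and 82 with TPM summed over transcripts. Single libraries and an unknown ChIP-seq depth limit all of these values, since a deeper library would call more peaks. No paired analysis was possible because each assay had 1 library and no result came from a test.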

Other observations

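In the upper mRNA classes, genes on the X chromosome had a lower share of Ser5p start peaks than autosomal genes. In the top quartile 17 of 120 X-linked genes had a start peak (14.2%, 8.47% to 21.7%), against 1072 of 3918 autosomal genes (27.4%, 26.0% to 28.8%), with median TPMs of 50.4 and 47.5. In the third quartile it was 1.60% of the X-linked genes (0.194% to 5.66%) against 443 of 3913 (11.3%, 10.3% to 12.4%), and in the second 2 of 162 (1.23%, 0.150% to 4.39%) against 209 of 3873 (5.40%, 4.71% to 6.16%). In the lowest quartile it was 0 of 149 (up to 2.45%) against 1.06% (0.759% to 1.43%), and at a TPM of 0 no X-linked gene had one (up to 0.937%) against 0.482% (0.312% to 0.711%), where the intervals overlap. E14 cells are male and carry a single X chromosome. The split was made after the data were seen and was not tested.

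The third strongest Ser5p peak, with a fold of 30.4 over 6104 bp, covers the start positions of 9 miRNA genes from Mir290a to Mir295, a cluster known for its high expression in mESCs, and the sixth, with 29.2 over 6428 bp, lies on Neat1, a long noncoding RNA listed at 42.7 TPM. Both are wider than the median peak of 414 bp. Of 1507 annotated snoRNA genes, 153 (10.2%) had a peak within 1 kb, many of them in introns of the same host gene and under the same peak.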
